A study of Homo sapiens with 4 samples.

Results

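EGR1 and 9 other immediate early genes (EGR3, FOS, FOSB, FOSL1, JUN, JUNB, ATF3, IER2 and MYC) were followed on 4 oligo-microarrays to see whether the lower EGR1 signal after miR-489 transfection was shared by genes of the same class. The genes were found by their names on the array, and all 10 were present, with 16 probes among 41000 and 10 gene names among 30982. EGR1 was selected on its own ratio on the FaDu miR-489 array, so that ratio and every contrast that uses it are a description without a test. The other 9 genes were taken by class.

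Each array paired the Cy5-labelled RNA of cells that had received a miRNA with Cy3-labelled RNA of its own line after a control miRNA, both taken 72 h after transfection. FaDu is an established line from a hypopharyngeal squamous cell carcinoma, and HSC3 is an established line from a squamous cell carcinoma of the tongue. The 4 arrays were FaDu with miR-489, FaDu with miR-504, HSC3 with miR-489 and HSC3 with miR-504, and values below are given in that order. There was 1 array per condition, and the dyes were not swapped, so a dye effect of a probe cannot be told apart from a change in a single ratio.

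Immediate early genes are transcribed within minutes of a signal such as a growth factor, serum or stress, without new protein synthesis. Signalling through RAS and the MAP kinases reaches their promoters through the serum response factor with its ELK partners, and through CREB and ATF proteins. Most of their products are transcription factors: the EGR proteins are zinc-finger factors that bind GC-rich sites, the FOS and JUN proteins pair to form AP-1, ATF3 is a stress-induced member of the ATF/CREB family, and MYC drives growth and the cell cycle. Their mRNAs are short-lived, so the level at 72 h after transfection is a late reading of such genes.

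The 2 transfected miRNAs are shown because they define the arrays, with the seed (bases 2 to 8) in capitals. The labels give no arm, so both arms of miR-504 that the RefSeq table lists are printed. The mature sequences were those of RefSeq (GRCh38.p14), at chr7:93483947-93483968 for miR-489 and at chrX:138667724-138667744 and chrX:138667760-138667781 for the miR-504 arms, all on the minus strand.
hsa-miR-489-3p: gUGACAUCacauauacggcagc
hsa-miR-504-3p: gGGAGUGCagggcaggguuuc
hsa-miR-504-5p: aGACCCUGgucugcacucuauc
No seed was shared between these miRNAs.

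Across the 4 arrays the control channel was well above background for 58.2 to 59.2% of spots and the transfectant channel for 61.2 to 62.6%. After centring each array on its median ratio, with probes in 4 equal groups of brightness, the dimmest group had median log2 ratios of −0.41 to −0.28 and the brightest group of 0.11 to 0.18, so small ratios moved with brightness. The 7 squamous markers found (among them KRT5, KRT14 and the p63 gene, here named TP73L) were well above background on all 4 arrays, with control signals from 245.5 to 33685. KRT6A was not found on the array. None of the 5 fibroblast, 4 leukocyte and 3 endothelial markers exceeded 79 units in any control channel.

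EGR1 was lower than its control on all 4 arrays, and furthest on the FaDu miR-489 array. Its single spot gave control (Cy3) signals of 2922, 3974, 335.5 and 3079 intensity units after background subtraction. The signals after miRNA transfection (Cy5) were 837, 3125, 260 and 2530. The centred log2 ratios of Cy5 over Cy3 were −2.38, −0.998, −0.95 and −0.73, or 0.191, 0.501, 0.517 and 0.603 of control. These are bulk RNA values, so fewer cells with EGR1 mRNA and less of it per cell cannot be told apart. The FaDu miR-489 array thus stood apart from the other 3, whose ratios lay close together. In the HSC3 miR-489 hybridisation both channels were low: the control signal there was far below the 3 other control signals.

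For EGR1 after miR-504, which did not enter its selection, the mean log2 ratio over the 2 cell lines was −0.86 (SE 0.33), with a limma p adjusted by Benjamini-Hochberg over 20914 probes of 0.0787. Pairing the arrays by cell line gave an adjusted limma p of 0.0144, and the value passed the 0.05 threshold in 5 of 10 other settings, over a range of 0.00597 to 0.332. None of these settings exchanged the control channels, which put EGR1 on the HSC3 miR-504 array at 2.25. The 2 lines stand in for replicates in every limma value here. In the main fit the p-values therefore rest on the spread between 2 different cell lines, each hybridised once per miRNA. Pairing removes the shift shared by the 2 arrays of a line, and the rest of that spread remains.

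**Figure D1:**
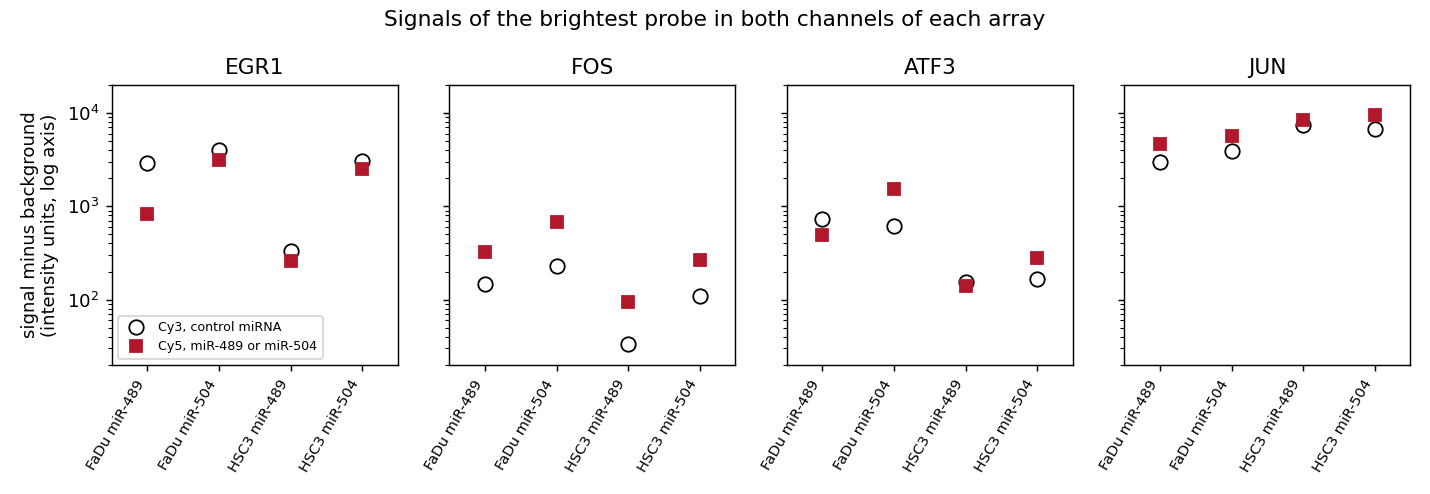
Background-subtracted signals (intensity units, log axis) of the brightest probe of EGR1, FOS, ATF3 and JUN on the 4 arrays, with the control miRNA channel (Cy3) as open circles and the miR-489 or miR-504 channel (Cy5) as filled squares, uncentred. On the HSC3 miR-489 array both channels of EGR1 (335.5 and 260) and of FOS (33.5 and 95.5) lie below those of the other arrays.

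EGR3, the other EGR gene in the group, gave no usable ratio. Its control signals were 14.5, 26, 13.5 and 8 units, not well above background on any array, and its transfectant signal was well above background only on the FaDu miR-504 array, at 53 units.

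FOS, the AP-1 subunit induced fastest by serum, was on the opposite side of its control from EGR1 on all 4 arrays. Its control signals were 145.5, 230.0, 33.5 and 110.0 units, and its transfectant signals were 322, 683, 95.5 and 264 units. The centred log2 ratios were 0.56, 0.92, 0.93 and 0.82, which did not reach 2-fold on any array. Although FOS and EGR1 lay on opposite sides of control, they shared the low signals of the HSC3 miR-489 hybridisation in both channels.

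FOSB, a close relative of FOS, was dim. Its log2 ratios were −0.01 and 0.26 on the FaDu arrays and −0.18 on the HSC3 miR-504 array, all near 0. On the HSC3 miR-489 array its control signal of 23.5 units was not well above background, so no ratio is given.

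The 2 probes of FOSL1, which codes for the FOS relative FRA-1, disagreed in sign. The brighter probe, A_23_P161624, with control signals of 1906 to 3134 units, gave log2 ratios of 0.77, 0.12, 0.70 and 0.41. The dimmer probe, A_23_P322519, with control signals of 570.0 to 894.5 units, gave −1.02, −1.45, −0.94 and −1.12. No direction against control can therefore be given for FOSL1. The order of the arrays was similar with both probes, the ratio after miR-489 being above that after miR-504 in each line.

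JUN, the main AP-1 partner of the FOS proteins, was printed 10 times on each array and gave the most precise values. Its log2 ratios were 0.067, −0.11, −0.42 and 0.084, with SDs between the 10 spots of 0.032 to 0.054, which cover error within an array only. The HSC3 miR-489 value lay below the others by more than the spread between spots, and no array reached 2-fold. Its control signals were 2988, 3939, 7446 and 6665 units.

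JUNB, another AP-1 subunit, was above control on each array with both probes. The brighter probe gave log2 ratios of 0.20, 0.58, 0.76 and 0.80 and the dimmer one gave 0.31, 0.77, 0.52 and 0.92. The FaDu miR-489 array was the lowest with each probe, and its lowest value over the settings tried was −0.01.

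ATF3, the stress-induced ATF/CREB factor, was below control after miR-489, like EGR1, but unlike EGR1 it differed in sign between the miRNAs. Its brighter probe, A_23_P34915, had control signals of 726.5, 617, 156 and 165 units. The transfectant signals were 493, 1526, 138.5 and 280. The log2 ratios were −1.14, 0.66, −0.76 and 0.32, so that ATF3 was below control on both miR-489 arrays and above it on both miR-504 arrays. These signs were the same in each alternative tried. The dimmer probe gave −1.93 and 0.35 on the FaDu arrays and was not well above background in HSC3.

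IER2, a small nuclear protein induced with the other immediate early genes, was below control on all 4 arrays. The log2 ratios of its brighter probe were −0.61, −1.04, −0.51 and −0.48, and those of its dimmer probe −0.87, −1.22, −0.82 and −0.73. In contrast to EGR1, the lowest IER2 value was on the FaDu miR-504 array with both probes.

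MYC lay close to its control with its bright probe. The bright probe, printed 10 times, gave log2 ratios of 0.087, 0.039, 0.22 and −0.064, with SDs between spots of 0.034 to 0.099. Only the HSC3 miR-489 value was several such SDs from 0. A dim probe gave −0.36, −0.67, −0.34 and −0.60 at control signals of 38.5 to 43.5 units. A further probe was not well above background in the control of 3 arrays. On the FaDu miR-489 array its control signal was 46 units. Its transfectant signal there, 18.5 units, was not well above background, which left a bound at −1.90.

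**Figure D2:**
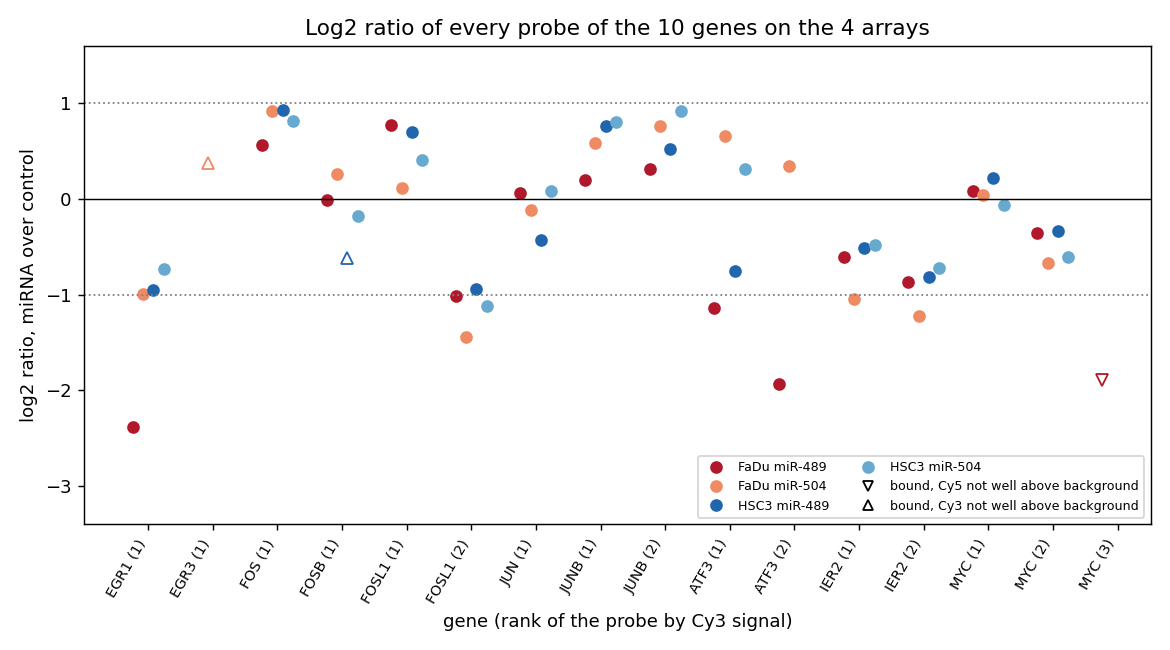
Centred log2 ratios of Cy5 (miR-489 or miR-504) over Cy3 (control miRNA) of every probe of the 10 genes with a measured value or a bound, 1 point per array; open triangles are bounds with 1 channel not well above background, and dotted lines mark 2-fold. EGR1 on the FaDu miR-489 array (−2.38) is the lowest measured point, FOS and JUNB lie above 0 on all arrays, and ATF3 lies below 0 after miR-489 and above 0 after miR-504.

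By the brightest probe of each gene, 2 of the 9 genes with a measurable control were at least 2-fold lower on the FaDu miR-489 array, EGR1 and ATF3, against 8.82% of all genes. EGR1 was chosen on that array, so its place in this count was fixed. On the FaDu miR-504 array 1 of 9 was at least 2-fold lower, IER2, against 5.98% of all genes. In HSC3 the count was 0 of 8 genes after miR-489, against 8.18%, and 0 of 9 after miR-504, against 5.1%. None (0) of the 10 genes was at least 2-fold higher on any array, where 2.86%, 2.35%, 2.71% and 1.97% of all genes were. The median log2 ratio over the measured genes of the group was 0.067, 0.12, −0.10 and 0.084, beside −0.02, −0.01, −0.02 and −0.01 over all genes.

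Against control, many probes of the group passed the limma threshold, as did many on the whole array. After miR-504, 4 probes were called lower and 4 higher of 12 tested, where 49.6% of all probes were called. After miR-489, 5 probes were called lower and 4 higher of 11 tested, where 57.1% were called, and EGR1 was not counted. FOSL1 was counted on both sides after miR-489. Its brighter probe was at 0.74 (limma adjusted p = 0.0032) and its dimmer probe at −0.98 (limma adjusted p = 0.0018). The dim MYC probe was called lower after miR-489 and after miR-504 (limma adjusted p = 0.0141 and 0.0032). These calls held in 6 of 10 and 7 of 10 other settings. Its control signals were 38.5 to 43.5 units, and the dimmest group of probes had median log2 ratios of −0.41 to −0.28. The part of brightness in these calls was not tested. FOS rose after both miRNAs, by 0.75 on the log2 scale after miR-489 (limma adjusted p = 0.0043) and by 0.87 after miR-504 (limma adjusted p = 0.0037). With the control channels exchanged within a line, which was not fitted, the miR-489 ratios of FOS changed sign. ATF3 fell by 0.95 on the log2 scale after miR-489 (limma adjusted p = 0.0037) and rose by 0.49 after miR-504 (limma adjusted p = 0.0330). The ATF3 call after miR-504 held in 6 of 10 other settings, with limma adjusted p-values of 0.0244 to 0.265. JUNB rose by 0.48 after miR-489 and by 0.69 after miR-504 by its brighter probe, with limma adjusted p-values of 0.0425 and 0.0164. After miR-504 the JUNB call held in 8 of 10 other settings. The JUNB call after miR-489 held in 4 of 10 other settings, with limma adjusted p-values of 0.0099 to 0.269. IER2 fell by 0.56 on the log2 scale after miR-489 and by 0.76 after miR-504 (limma adjusted p = 0.0239 and 0.0108). After miR-504 the IER2 call held in 9 of 10 other settings. The IER2 call after miR-489 held in 8 of 10 other settings, with limma adjusted p-values of up to 0.131. JUN and the bright MYC probe did not pass, with mean log2 ratios of −0.18 and 0.15 after miR-489 (limma adjusted p = 0.311 and 0.167). In these contrasts GAPDH and ACTB were called higher too, with log2 ratios between 0.80 and 1.10, and a dye effect was not tested.

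The comparison of miR-489 with miR-504 within a line removes what is common to the arrays of that line, such as the dye effect of a probe. The log2 ratio of ATF3 after miR-489 minus that after miR-504 was −1.80 in FaDu, the 52nd lowest of 22266 probes, and −1.07 in HSC3, the 289th lowest of 22422. Its dimmer probe differed by −2.28 in FaDu, the 6th lowest. For EGR1 the difference was −1.39 in FaDu, the 175th lowest, and −0.22 in HSC3, the 4527th lowest. The FaDu difference of EGR1 was therefore not seen at a like size in HSC3 by these ratios.

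ATF3 was the 1 probe of the 11 tested that was called between the miRNAs, where 1.1% of all probes were called (230, of which 164 lower after miR-489). Its mean difference was −1.43 (SE 0.19), with a limma adjusted p of 0.0499. The call held in the 6 alternatives that kept all 4 arrays, with limma adjusted p-values of 0.0224 to 0.0481. It was lost when any array was left out (limma adjusted p = 0.119 without FaDu miR-489, 0.280 without FaDu miR-504, 0.0904 without HSC3 miR-489 and 0.170 without HSC3 miR-504), where 0 of all probes were called (2065 to 3704 at an unadjusted p under 0.05), although the difference stayed between −1.63 and −1.24. The other members showed smaller differences: the 2 FOSL1 probes differed by 0.47 and 0.30 (limma adjusted p = 0.182 and 0.353), FOS by −0.12 (limma adjusted p = 0.741) and JUN by −0.16 (limma adjusted p = 0.716).

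**Figure D3:**
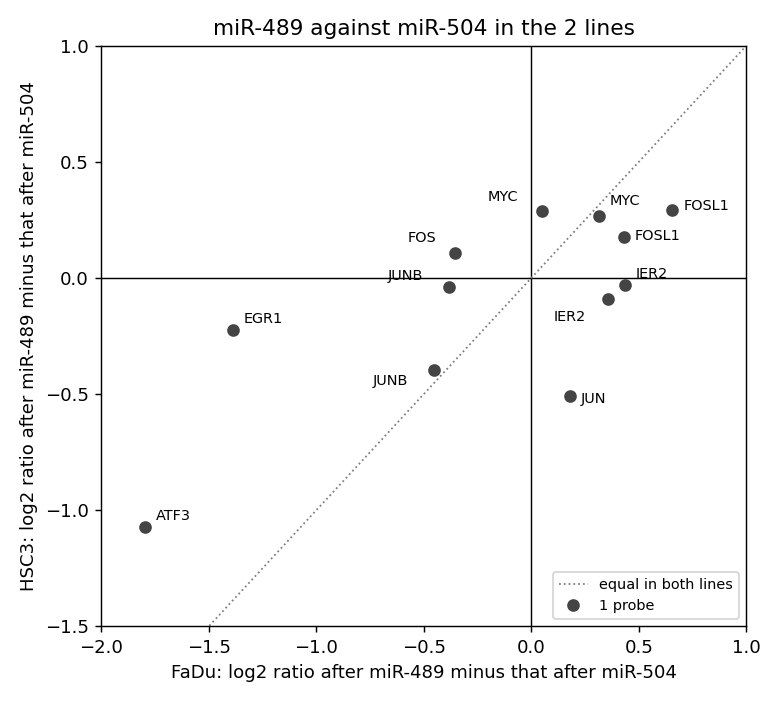
Log2 ratio after miR-489 minus that after miR-504 in FaDu (x axis) and in HSC3 (y axis), 1 point per probe with all channels well above background; the dotted line marks equal differences. ATF3 is the point low on both axes (−1.80 and −1.07), and EGR1 is low in FaDu (−1.39) but near 0 in HSC3 (−0.22).

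Each line has 2 control channels with the same label, and they were set side by side after scaling each to its 75th percentile. Their log2 levels correlated over probes with r = 0.993 in FaDu and 0.987 in HSC3, and 0.819% of 22472 probes in FaDu and 2.2% of 22572 in HSC3 were at least 2-fold apart. In FaDu 0 of 9 genes of the group were at least 2-fold apart, with FOS the furthest at 0.68 on the log2 scale and EGR1 at 0.46. In HSC3 2 of 8 were. EGR1 was 7.63-fold higher in the control of the miR-504 array than in that of the miR-489 array, the 21st largest difference of all probes. FOS was 2.73-fold higher, the 175th largest. FOSB was at least 2.02-fold higher, its lower channel not being well above background. The other genes measured in both HSC3 controls differed by no more than 0.50 on the log2 scale, ATF3 by −0.19. Whether the 2 control channels of a line hold 1 RNA or separate transfections is not given in the sources used here.

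**Figure D4:**
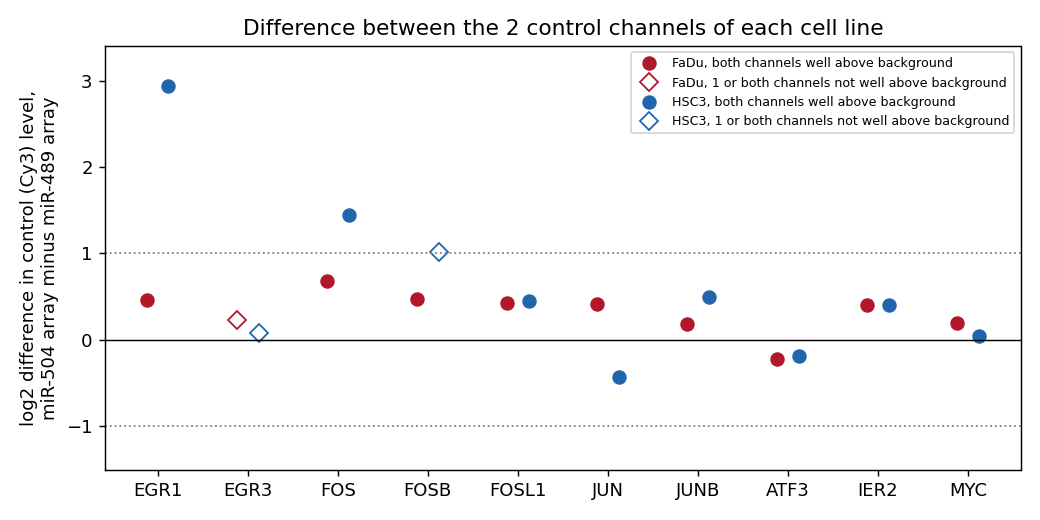
Log2 difference in control miRNA (Cy3) level between the 2 arrays of each line, miR-504 array minus miR-489 array, for the brightest probe of each gene; open diamonds have 1 or both channels not well above background, and dotted lines mark 2-fold. EGR1 (2.93) and FOS (1.45) stand apart in HSC3, while ATF3 lies near 0 in both lines (−0.22 and −0.19).

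The size of the HSC3 values of EGR1, and the sign of that after miR-504, rested on which control was used. Against the control of the other HSC3 array, the log2 ratio of EGR1 was −3.95 after miR-489 and 2.25 after miR-504, in place of −0.95 and −0.73. In FaDu the same exchange gave −2.86 and −0.53, in place of −2.38 and −0.998. FOS turned to −0.13 on the FaDu miR-489 array and to −0.59 on the HSC3 miR-489 array, and stood at 1.603 and 2.32 after miR-504. ATF3 kept its signs, at −0.94, 0.44, −0.64 and 0.18.

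With the control channels left out, the brightest probes of 3 of 9 genes were at least 2-fold lower in FaDu after miR-489 than after miR-504. These were EGR1, FOS and ATF3, and 2.5% of all probes were that low. In HSC3 3 of 9 were as well (EGR1, FOS and FOSB), where 3.32% of all probes were. EGR1 was selected on its FaDu miR-489 ratio, whose Cy5 signal is used here, so its place in the FaDu count was favoured. The log2 differences between the Cy5 channels were −1.84 and −3.20 for EGR1, −1.02 and −1.38 for FOS, −0.73 and −1.49 for FOSB, and −1.57 and −0.93 for ATF3, in FaDu and HSC3. In HSC3 the low levels of EGR1, FOS and FOSB were thus common to both channels of the miR-489 array, whereas that of ATF3 was in its Cy5 channel. NR4A1, a nuclear receptor of the immediate early class outside the group, was low there too, with Cy3 signals of 23.5 (not well above background) and 149.5 units and Cy5 signals of 25 and 210.5 units on the miR-489 and miR-504 arrays. The control level of CTGF, a matricellular protein, was higher by 1.22 on the log2 scale on the HSC3 miR-504 array. It was the 1 of 17 further immediate early genes for other proteins at least 2-fold apart in the HSC3 controls, where 2.2% of all probes were. Of the further immediate early transcription factors measured in both HSC3 controls, 0 of 9 were. Several of these further genes went the other way, RHOB furthest at −0.91. Single channels carry the differences between hybridisations as well, whose part was not tested.

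The promoters of these 3 genes of the group, low in both channels of that array, are shown from 150 bases before to the base before the RefSeq start (GRCh38.p14, plus strand), at chr5:138465329-138465478 for EGR1, chr14:75278678-75278827 for FOS and chr19:45467846-45467995 for FOSB. Capitals mark CArG boxes, the sites of the serum response factor, and the letters TGACG on either strand, the core of a cyclic AMP response element.
EGR1: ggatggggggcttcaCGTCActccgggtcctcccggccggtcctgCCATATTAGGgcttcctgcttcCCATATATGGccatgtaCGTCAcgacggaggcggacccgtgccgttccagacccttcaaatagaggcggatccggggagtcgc
FOS: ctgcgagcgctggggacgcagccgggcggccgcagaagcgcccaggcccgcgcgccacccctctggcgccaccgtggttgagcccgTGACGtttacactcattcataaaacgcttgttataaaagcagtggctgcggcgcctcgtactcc
FOSB: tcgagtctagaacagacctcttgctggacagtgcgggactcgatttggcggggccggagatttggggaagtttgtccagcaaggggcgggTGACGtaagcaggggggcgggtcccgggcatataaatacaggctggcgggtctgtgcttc
In these windows EGR1 held 2 CArG boxes, starting 105 and 83 bases before its start, and 2 TGACG matches, while FOS and FOSB held 1 TGACG each, 64 and 60 bases before theirs.

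Promoters of 7 of the 10 genes were in the table. Over 250 bases, TGACG was found in 6 of the 7, in all but ATF3, and in 21.22% of 35116 promoters. CArG boxes were found in 1 of 7, that of EGR1, and in 1.159% of promoters. The AP-1 site TGANTCA was found in 0 of 7 (6.573% of promoters), the full element TGACGTCA in 0 of 7 (1.646%) and the EGR site GCGNGGGCG in 1 of 7, again that of EGR1 (8.415%). TGACGTCA holds TGACG, so these motifs overlap. A match describes letters in the window and no more. Bases further upstream were not searched, so a gene without a match here may hold the site elsewhere.

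The control level of several genes differed between the lines in both control channels. The HSC3 minus FaDu log2 difference of ATF3 was −2.31, with pairs of channels between −2.51 and −2.11. FOS was at −1.84, with pairs between −2.91 and −0.78. JUN was higher in HSC3 by 0.79, with pairs between 0.37 and 1.21. EGR1 was at −1.996, and its pairs ranged from −3.69 to −0.30, the lowest with the HSC3 miR-489 control. FOSL1, JUNB and IER2 had pairs on both sides of 0.

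Other immediate early genes and their regulators were read from lists of names. Of 14 further immediate early transcription factors, of which 9 to 13 had a measurable control on an array, 0 were at least 2-fold lower on any array. JUND, an AP-1 subunit, gave 1.02, 1.13, 0.95 and 0.98 and was at least 2-fold higher on the FaDu arrays. The reference genes GAPDH and ACTB lay at a like size, between 0.80 and 1.10. KLF6, a zinc-finger factor, was at least 2-fold higher on the FaDu miR-489 array, at 1.44. Of 17 immediate early genes that code for other proteins, 15 to 17 had a measurable control on an array. Among them 1 was at least 2-fold lower on any array, CYR61, a matricellular protein, at −1.34 on the FaDu miR-504 array. The kinase gene SGK stood at 1.37 on the FaDu miR-489 array and ARC at 1.21 on the HSC3 miR-504 array. On the FaDu miR-489 array 0 of the 12 and 0 of the 15 measured genes of these lists were at least 2-fold lower, where 8.82% of all genes were. Between the miRNAs limma called 0 of the 9 and 0 of the 15 that could be tested (2 and 2 at an unadjusted p under 0.05), beside 1.1% of all probes.

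Among 8 partners and corepressors, NAB1 and NAB2, which bind EGR proteins and repress them, lay between −0.12 and 0.20 on all arrays. ATF2, an ATF/CREB factor that pairs with JUN, followed the pattern of ATF3, with log2 ratios of −0.79, 0.61, −0.41 and 0.59 and a difference between the miRNAs of −1.20 (limma adjusted p = 0.0499). It was the 1 of 7 tested that was called, beside 1.1% of all probes.

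Of 16 genes upstream of immediate early transcription, 3 were at least 2-fold lower on the FaDu miR-489 array, 2 on the FaDu miR-504 array, 3 on the HSC3 miR-489 array and 1 on the HSC3 miR-504 array, where 8.82%, 5.98%, 8.18% and 5.1% of all genes were. None (0) was at least 2-fold higher. PTPN11, the SHP2 phosphatase that carries receptor signals to RAS, gave log2 ratios of −3.25, −1.29, −3.22 and −1.04. The paper lists PTPN11, like EGR1, among the genes lowered after miR-489 in FaDu. Its place in the FaDu miR-489 count was therefore fixed, and its value is no independent evidence. MAPK14, the p38α kinase, gave −1.33, 0.44, −1.11 and 0.27. RPS6KA3, the RSK2 kinase, gave −1.72, −0.84, −1.27 and −0.74. PTPN11 and MAPK14 were the 2 of 15 tested that were called between the miRNAs, with differences of −2.07 and −1.57 (limma adjusted p = 0.0304 and 0.0314), beside 1.1% of all probes. This contrast uses the FaDu miR-489 array, so the call of PTPN11 is a description and its place in this count was favoured.

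By Euclidean distance over the 4 log2 ratios, taken over the 15602 genes outside the group measured in each channel of each array, the genes nearest to EGR1 were NAP1L1 (0.437), the transcript AK021751 (0.480), XK (0.517), RNF149 (0.634) and CARD8 (0.673). NAP1L1, a histone chaperone, gave −2.34, −0.95, −1.38 and −0.82. None of the further immediate early genes in the lists was among these 5. On the FaDu miR-489 array, where EGR1 was furthest below control, 0 of the 12 and 0 of the 15 measured were at least 2-fold lower. Their absence was thus largely set by the array on which EGR1 was selected and is no test. The paper lists NAP1L1 and RNF149, like EGR1, among the genes lowered after miR-489 in FaDu. The likeness is over 4 ratios and is a description.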

How the data were processed

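Gene expression was measured on 4 two-colour Agilent arrays on 1 slide, read in 1 scan. For every spot the authors deposited its intensity (median and mean) and that of the local background, written by Agilent Feature Extraction 9.5.3.1, and log10 ratios after that software's dye normalisation; a deposited table held the same log10 ratios. Deposited 0 or 1 flags (other) marked outliers and signals well above background. The paper's methods name another scanner and software, and its log2 ratio of median background-subtracted intensity was followed here.

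Log2 ratios were centred on the median of probes well above background in both channels (0.58, 0.65, 0.58 and 0.45 removed). Outlier spots (118 to 137 per array) were left out, and replicate spots averaged. A channel not well above background was set to its signal or, if higher, to the smallest signal that was well above background on that array. A gene took its brightest probe by control signal. Calls were 2-fold or, by limma, an adjusted p under 0.05 (Benjamini-Hochberg) over the 20914 probes with a control well above background on all arrays (2 residual degrees of freedom, prior 3.21, prior SD 0.135). On simulated data with independent errors, the fit recovered 187 of 200 planted log2 changes of 2, with 9 false calls. Effects of line and dye were not simulated. The planted changes were larger than the differences of ATF3 and ATF2, so the simulation does not bear on those calls. Arrays of 1 line share its cells, so pairing by line was the alternative; deviations of the paired arrays correlated with r = 0.14. The number of arrays limits the precision. Other alternatives were normexp (offset 50), no background subtraction, the mean spot signal, loess (span 0.3), normexp with loess, total-signal scaling, the deposited ratios and table, other dim-probe filters and probe choices, 1.5-fold and 4-fold thresholds and leaving out each array; exchanging or omitting the controls was added after the HSC3 controls were seen to differ. The members, lists and tests were chosen with earlier results of these data known. Named genes were the members, list genes past 2-fold on both arrays of a miRNA or called by limma between the miRNAs, and the 5 nearest to EGR1; the limma part of that rule was applied to calls between the miRNAs alone, since 49.6% and 57.1% of all probes were called against control, and others named were chosen after their values were seen. The statistics used limma 3.58.1 in R 4.3.3, and figures were drawn with matplotlib 3.10.9 in Python 3.11.15. Genes are named as in the array design. Seed matches in transcripts were not analysed here. A gene of the lists is not reported here.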

Additional observations from a re-analysis of the deposited data

Results flagged for a closer look

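Some genes lay on opposite sides of control in the 2 cell lines under the same miRNA, each line having 1 array, and these differences were not tested. The log2 ratio of FOSB after miR-504 was 0.26 in FaDu and −0.18 in HSC3. That of JUN after miR-489 was 0.067 in FaDu and −0.42 in HSC3, and after miR-504 −0.11 and 0.084. That of MYC after miR-504 was 0.039 and −0.064. JUN in HSC3 after miR-489 was the value furthest from 0. That value and FOSB in FaDu after miR-504 kept their signs in every alternative.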

How the results depend on the processing

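With 1 array per condition, 4 arrays and 2 lines, small ratios of dim probes are limited by the signal over background. The numbers of the 10 genes at least 2-fold lower were 2, 1, 0 and 0 in the order of arrays used above. Normexp gave 2, 0, 0 and 0, unsubtracted signals 1, 0, 0 and 0, normexp and loess 2, 2, 0 and 0, and the mean signal, loess, total-signal scaling, the deposited ratios and the deposited table each 2, 2, 1 and 0. The other control gave 2, 0, 2 and 0, no filter on dim probes 3, 1, 1 and 1, the second brightest probe 3, 2, 0 and 1, the 1.5-fold threshold 3, 2, 2 and 1, and the 4-fold threshold 1, 0, 0 and 0. The numbers at least 2-fold higher were 0 throughout, but 1 on the HSC3 miR-489 array with loess, 0, 1, 2 and 0 with the deposited ratios and table, 0, 1, 0 and 3 with the other control and 1, 2, 3 and 2 at 1.5-fold. The cause of these moves was not tested. The probes called between the miRNAs numbered 230 (3869 at an unadjusted p under 0.05), 663 with normexp, 782 with normexp and loess, 390 with the deposited ratios and 578 with the replicate block by cell line. Leaving out any array gave 0 (limma; 2065 to 3704 at an unadjusted p under 0.05), with fewer samples. The calls after miR-504 against control, 10381, were 3498 and 4173 without 1 of the miR-504 arrays and up to 10919 without 1 of the others. Pairing by line also brought EGR1 after miR-504 past the threshold, in a fit that, like the main one, includes the array on which EGR1 was selected. EGR1 ranged from −2.86 to −2.17 on the FaDu miR-489 array and kept its sign on each array in every alternative, apart from 2.25 with the other control on the HSC3 miR-504 array. JUN and MYC, near 0, changed sign in several settings.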
